A study of Rattus norvegicus with 8 samples.

Results

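Receptors for the amine transmitters, acetylcholine and the purines were examined in the rat neural lobe, the posterior part of the pituitary, at 2 ages. They were taken as the genes whose symbol names an adrenergic, dopamine, serotonin, muscarinic, nicotinic, histamine, P2X, P2Y or adenosine receptor, leaving out Drd2, P2ry12 and P2ry13, and requiring that 4 or more of the 8 libraries reach a value of 10. Of 71 matching symbols among 33294 genes listed, 3 were left out by name, 20 lay under the minimum and 48 remained, which is 48 of the 17919 genes tested. Tissue came from Sprague Dawley rats, all male, aged 35 days (4 libraries) or 125 days (4 libraries), with no genotype or agent besides age, and all animals were perfused with saline under isoflurane before the lobe was frozen. Whether each library is 1 animal is not said in the labels. The p-values therefore reflect spread among these libraries, some of which may be technical.

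In the neural lobe the axon terminals of hypothalamic vasopressin and oxytocin neurons lie among glial cells called pituicytes and a dense bed of capillaries, next to the melanotrophs of the intermediate lobe. Muscarinic, adrenergic, most serotonin, histamine, P2Y and adenosine receptors act through G proteins, while nicotinic, P2X and Htr3 receptors are ion channels opened by their ligand. Terminals release ATP along with hormone, extracellular enzymes turn it into adenosine, and both act back on terminals and on pituicytes, whose shape is known to respond to adenosine and to beta adrenergic agonists.

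Values are depth-normalized counts (gene reads divided by 1 size factor per library), from libraries of 28429133 to 58696254 reads. They do not account for transcript length, so levels are compared between libraries and not between genes. Means are given ± SD (n = 4 libraries per age), that of 35 days before that of 125 days. A change is the log2 of (value + 1) at 125 days minus that at 35 days with its standard error (SE). It was called by limma across all 17919 genes at a Benjamini-Hochberg adjusted p below 0.05. Libraries are listed in the order of replicates 1 to 4. In this whole tissue fewer cells of a type and less RNA per cell cannot be told apart. The mix of tissue differed between libraries. Summed values of 6 melanotroph markers, Pomc included, were 2028750 to 3773790 at 35 days and 3635230 to 5362760 at 125 days. Nearly all of that sum is Pomc, which was not called (adjusted p = 0.333). Of the other 5 markers Pcsk2 and Oacyl were higher, while the means of Pax7 and Drd2 at 125 days were 0.979 and 0.979 times those at 35 days. Summed values of 8 anterior lobe markers were 23566 to 1391590, the highest in 35-day replicate 3, and 6424 to 49907 (3 of 8 lower). The 10 pituicyte markers, all detected, summed to 73543 to 126382 and 58223 to 87222 (3 lower). Endothelial markers summed to 24017 to 33878 and 15242 to 29869 (6 of 10 lower), and pericyte and smooth muscle markers to 12369 to 20908 and 11181.0 to 15872 (8 of 10 lower, 1 higher).

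Of the 48 receptor genes, 6 were higher and 3 lower at 125 days. The higher ones were Chrm4, Chrm1, Chrna7, Chrnb2, P2rx3 and Adrb1, and the lower ones were Adra2a, Chrna4 and Htr6. The share called, 18.8%, was close to the 17.7% of all genes tested (8.85% higher, 8.87% lower), so the number of calls sets these receptors in no way apart from other genes. The ages did not overlap for 7 higher and 4 lower members, where 24.9% of all genes tested had no overlap (13.4% higher, 11.5% lower). The members' median log2 change was -0.17 against 0.01 over all genes tested. A negative change was found in 30 of 48 members, beside 8816 of the 17919 genes tested. All 3 histamine and all 3 alpha2 adrenergic receptor genes had negative log2 changes, of which only that of Adra2a passed, while muscarinic and nicotinic genes went both ways. At the edge of the minimum, Chrna2 was kept with 4 libraries at or above 10. Just outside it lay Adrb3, with 11, 16.5, 2.18 and 4.52 at 35 days and 6.09, 9.77, 3.78 and 4.89 at 125 days, and Chrm5, with 2.43, 3.1, 0 and 3.95 and 7.11, 12.7, 16.4 and 6.84, each with 2 libraries at or above 10.

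By main coupling, 1 of 12 Gq-coupled receptor genes was higher and none was lower (median log2 change -0.21), and of 10 coupled to Gi 1 was higher and 1 lower (-0.25). Among 6 Gs-coupled receptor genes 1 was higher and 1 lower (-0.08). The 18 channel subunit genes had 3 higher and 1 lower (-0.08), and the remaining 2 genes, P2ry10 and Htr5b, had no call. Over all genes tested 8.85% were higher and 8.87% lower, with a median log2 change of 0.01. So few calls per class set no class apart from other genes. Without 35-day replicate 3, the library with the most anterior lobe RNA, 7 members were higher and 8 lower, with 5495 genes called of 17919 (30.7%; 15.9% higher, 14.8% lower). Under total read scaling 4 were higher (6.48% of all genes) and 4 lower (11%), and 37% of all calls were higher, against 49.9% with the deposited size factors.

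**Figure D1:**
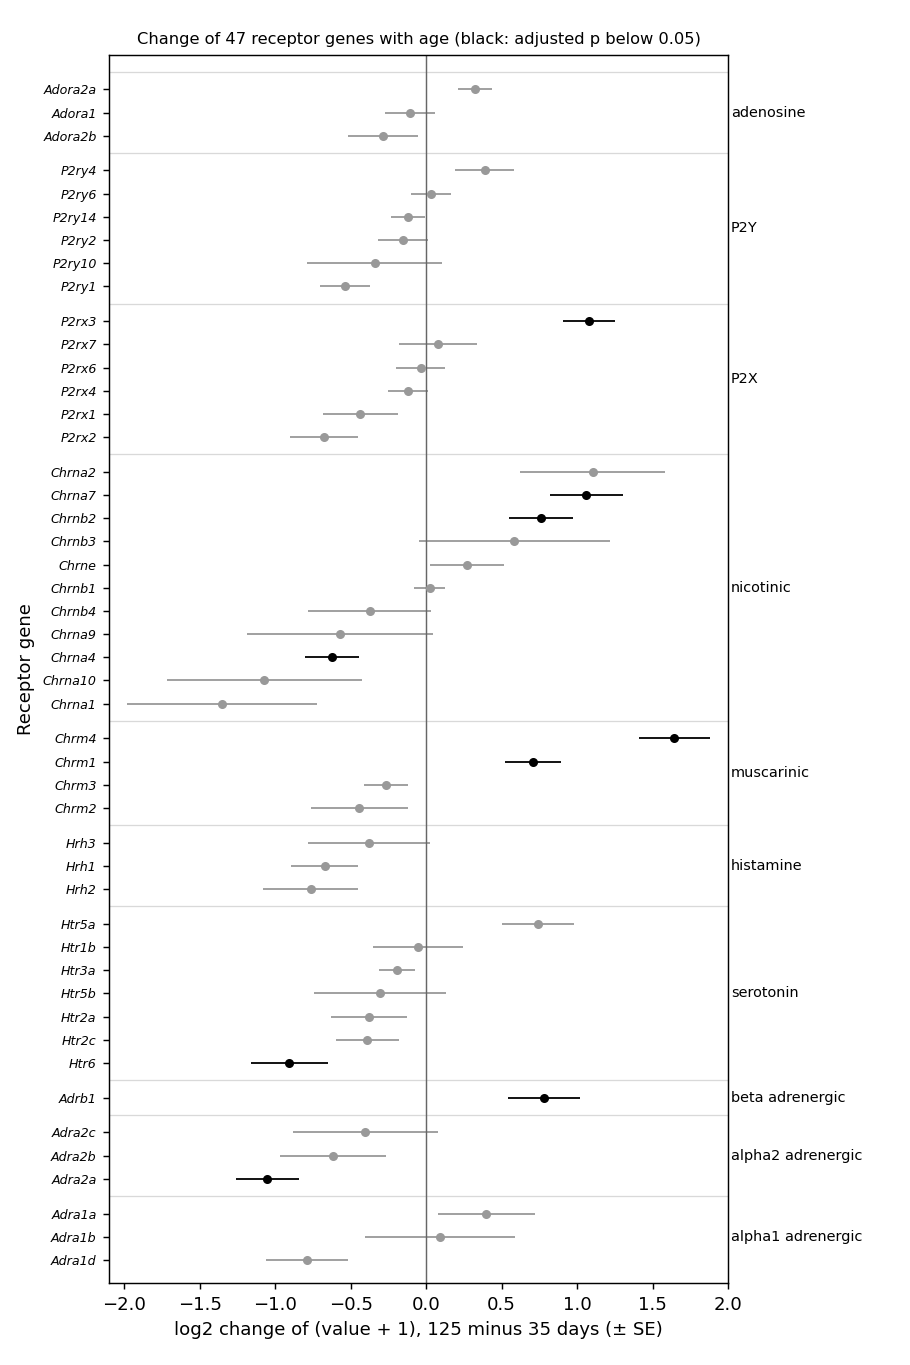
Log2 change with age of 47 of the 48 receptor genes (x axis, 125 minus 35 days, on the log2(value + 1) scale, with SE bars), grouped by family along the y axis. Black points mark the 9 genes with an adjusted p below 0.05, 6 to the right of 0 and 3 to the left, from Chrm4 at 1.65 to Adra2a at -1.05.

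Among the muscarinic receptors, which bind acetylcholine, Chrm4 and Chrm1 rose. Chrm4 encodes a receptor that inhibits adenylyl cyclase through Gi. Its depth-normalized counts were 199.6, 207, 95.9 and 217 at 35 days and 567, 498, 553 and 536 at 125 days. Every library of 125 days lay above every library of 35 days, and 35-day replicate 3 was the lowest of all. The mean was 2.99 times as high (means 179.9 ± 56.5 and 539 ± 29.6, adjusted p = 0.00135 for a log2 change of 1.65, SE 0.24), the largest rise among the 48 genes, and the call held under all 21 alternatives. In RefSeq's GRCr8 annotation Chrm4 overlaps Mdk, which encodes the growth factor midkine. The labels do not say whether the library kit or the counting kept strand, so reads of such neighbours may not be told apart, and 21 of the 48 members overlap another gene in that annotation. Mdk was at 4320.3, 4428, 6428 and 3805 and at 3345, 5511, 4175 and 3807 in the same libraries (means 4745 ± 1154 and 4209 ± 932, adjusted p = 0.58 for a log2 change of -0.17, SE 0.19), with ages that overlapped.

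Chrm1 encodes a Gq-coupled receptor. It was at 106, 205, 159 and 152 at 35 days and 239, 238, 269 and 248 at 125 days, with no overlap and a narrower spread at 125 days (means 155 ± 40.4 and 248 ± 14.4, adjusted p = 0.0269 for a log2 change of 0.71, SE 0.19). Leaving out 35-day replicate 4, or 125-day replicate 1, 3 or 4, ended that call (adjusted p from 0.0524 to 0.0807). Chrm3, the other Gq-coupled muscarinic receptor gene that was tested, had means of 214 ± 22.9 and 179 ± 25.8 and did not pass (adjusted p = 0.254 for a log2 change of -0.27, SE 0.15). Chrm5, also Gq-coupled, lay under the minimum and was not tested, at 0 to 3.95 at 35 days and 6.84 to 16.4 at 125 days. Chrm2, whose product also couples to Gi, was low, at 18 ± 4.81 and 12.9 ± 3.58 (adjusted p = 0.385 for a log2 change of -0.44, SE 0.32). Of the summed value of the 4 tested muscarinic genes Chrm4 took 21.2 to 35.5% in the 35-day libraries and 53.2 to 56% in the 125-day libraries. Chrm3 took 32.4 to 42.5% and then 16.4 to 19.5%. The Chrm4 to Chrm3 ratio, which does not depend on the size factors, lay between 0.515 and 0.995 in the 35-day libraries and between 2.73 and 3.42 in those of 125 days.

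Of 11 nicotinic subunit genes, Chrna7 and Chrnb2 rose, Chrna4 fell and 8 did not pass (27.3% called, beside 17.7% of all genes). So few calls do not set the family apart. The product of Chrna7 can form a calcium-permeable channel on its own. Its values were 181, 134, 89.4 and 163 at 35 days and 352, 203, 315 and 302 at 125 days. All 125-day libraries were higher, with replicate 2 the lowest of them (means 142 ± 40.1 and 293 ± 63.7, adjusted p = 0.0147 for a log2 change of 1.06, SE 0.24). The call was lost with the mean log2 level of the 8 anterior lobe markers as a covariate (adjusted p = 0.112 for a log2 change of 0.78, SE 0.30) and without 125-day replicate 1 (adjusted p = 0.0515).

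Chrna4 and Chrnb2 encode the subunits of the main high-affinity nicotinic receptor of the brain, and they moved in opposite directions. Chrnb2 was at 522, 603, 348 and 666 and then at 1073, 669.5, 872 and 971, with the highest 35-day library just under the lowest 125-day library (means 535 ± 138 and 896 ± 172, adjusted p = 0.0328 for a log2 change of 0.76, SE 0.21). Chrna4 was at 213, 271, 282 and 247 at 35 days and at 144, 125, 194 and 200.4 at 125 days, every older library lower (means 253 ± 30.5 and 166 ± 37.1, adjusted p = 0.0373 for a log2 change of -0.63, SE 0.18). The Chrna4 to Chrnb2 ratio lay between 0.371 and 0.812 at 35 days, highest in replicate 3, and 0.134 to 0.223 at 125 days. The anterior lobe covariate ended the Chrnb2 call (adjusted p = 0.154 for a log2 change of 0.64, SE 0.28), as did total read scaling (0.0572), a fit with no intensity trend (0.0534) and the omission of 35-day replicate 1 or of 125-day replicate 1, 3 or 4 (0.0713 to 0.101). That covariate also ended the Chrna4 call (adjusted p = 0.313 for a log2 change of -0.32, SE 0.20), as did the omission of 35-day replicate 2 or 4 or of 125-day replicate 1 or 2 (0.0666 to 0.107). Chrna4 overlaps Col20a1, a collagen gene, at 365, 287, 175 and 304 and 175, 277, 198 and 182 (means 283 ± 79.1 and 208 ± 46.9, adjusted p = 0.253 for a log2 change of -0.42, SE 0.23).

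Subunits of the muscle-type receptor were measured too. Chrnb1 ranged from 291 to 332 over all libraries, with means of 315 ± 17.6 and 319.8 ± 14.7 (adjusted p = 0.91 for a log2 change of 0.02, SE 0.10), and Chrne was at 42 ± 8.41 and 51.5 ± 15 (adjusted p = 0.496 for a log2 change of 0.27, SE 0.24). Chrna1 was at 17, 13.4, 101 and 18.1 at 35 days and 9.14, 3.91, 12.6 and 16.6 at 125 days (means 37.5 ± 42.6 and 10.6 ± 5.39, adjusted p = 0.174 for a log2 change of -1.35, SE 0.63). Its 35-day mean was set by replicate 3, and without it the values were adjusted p = 0.25 for a log2 change of -0.71, SE 0.44. With the anterior lobe covariate the Chrna1 change was -0.02 (SE 0.60, adjusted p = 0.987), and DESeq2 called it (0.0397). Skeletal muscle markers summed to only 80.3 to 147 at 35 days and 181 to 239.7 at 125 days, with 5 of 9 under 10 in every library, among them Myog and Myh4. Acta1 had the largest values, at 54.8 to 102 and 133 to 199, and was called higher (adjusted p = 0.00527 for a log2 change of 1.19, SE 0.22). Ckm, Myh2 and Tnnt3 were not called, so the sum does not show a rise of the set. Chrng was listed at 0 in all 8 libraries, and Chrnd was at 2.07 to 9.03.

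The remaining subunit genes were low and spread widely. Chrna10, of cochlear hair cells, was at 3.65, 35.1, 22.9 and 22.6 and 12.2, 11.7, 6.3 and 2.93 (means 21.1 ± 13 and 8.29 ± 4.46, adjusted p = 0.29 for a log2 change of -1.07, SE 0.65), from 3 to 40 reads. It was called without 35-day replicate 1 (adjusted p = 0.0427 for a log2 change of -1.71, SE 0.47) and with library weights (0.0225), and the anterior lobe covariate brought the log2 change to -0.27 (SE 0.80). Its usual partner Chrna9 was at 34.5 ± 28.7 and 21.5 ± 13.8 (adjusted p = 0.571 for a log2 change of -0.57, SE 0.62), with 35-day replicate 3 at 76.3. Chrna2 was at 4.87, 6.2, 13.1 and 1.69 and 15.2, 14.7, 8.83 and 12.7 (means 6.46 ± 4.8 and 12.9 ± 2.9, adjusted p = 0.147 for a log2 change of 1.10, SE 0.48), and the ages overlapped at 3 to 15 reads. It was called without 35-day replicate 3 (adjusted p = 0.0253 for a log2 change of 1.49, SE 0.43) and with library weights (0.0256), while without 35-day replicate 4 the log2 change was 0.69 (SE 0.40). Chrnb3 was at 10.8 ± 12.1 and 13.5 ± 7.7 and Chrnb4, a subunit of autonomic ganglia, at 48.6 ± 23.2 and 34.8 ± 12.1 (log2 changes 0.58, SE 0.63, and -0.37, SE 0.41). Chrna3, the partner of Chrnb4 in ganglia, reached only 3.10 in any library, below the minimum.

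**Figure D2:**
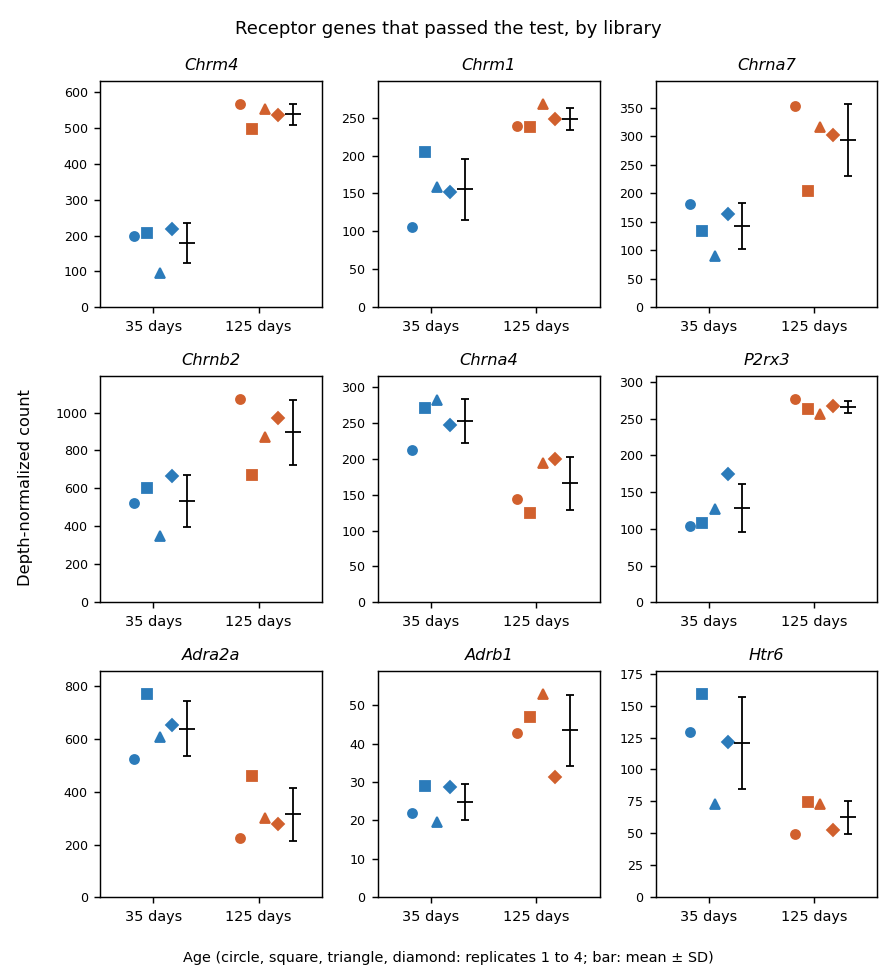
Depth-normalized counts (y axes, from 0) of the 9 receptor genes that passed the test, at 35 and 125 days (x axes), with 1 symbol per replicate and bars for mean ± SD. The ages do not overlap except for Htr6, where 35-day replicate 3 at 73.0 lies among the 125-day libraries.

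Promoter sequence was read from RefSeq (GRCr8) by gene symbol, and it served only for sequence, since the files use another build, rn7. It was found for 38 of the 48 genes. The 250 bases before the start site of the 4 cholinergic receptor genes that changed and hold a GC box (GGGCGG on either strand, capitals) are printed because 3 of them rose and Chrna4 fell. Chrm4 is at chr3:98348830-98349079 on the plus strand, Chrna7 at chr1:126249130-126249379 on the minus strand, Chrnb2 at chr2:177487307-177487556 on the minus strand and Chrna4 at chr3:188534527-188534776 on the minus strand.
Chrm4: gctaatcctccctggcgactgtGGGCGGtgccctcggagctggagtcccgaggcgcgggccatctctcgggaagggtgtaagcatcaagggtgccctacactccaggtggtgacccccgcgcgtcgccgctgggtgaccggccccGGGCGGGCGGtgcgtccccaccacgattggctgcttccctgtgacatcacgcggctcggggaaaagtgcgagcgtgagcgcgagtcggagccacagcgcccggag
Chrna7: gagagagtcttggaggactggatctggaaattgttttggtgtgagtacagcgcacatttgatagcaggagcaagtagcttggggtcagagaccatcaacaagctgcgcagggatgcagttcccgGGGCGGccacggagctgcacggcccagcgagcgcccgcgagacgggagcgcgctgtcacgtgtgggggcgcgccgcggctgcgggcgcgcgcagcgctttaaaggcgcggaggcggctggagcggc
Chrnb2: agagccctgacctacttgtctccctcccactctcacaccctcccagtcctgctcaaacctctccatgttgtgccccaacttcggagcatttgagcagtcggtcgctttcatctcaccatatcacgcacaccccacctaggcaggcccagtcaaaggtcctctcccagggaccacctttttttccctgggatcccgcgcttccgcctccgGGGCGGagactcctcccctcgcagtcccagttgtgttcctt
Chrna4: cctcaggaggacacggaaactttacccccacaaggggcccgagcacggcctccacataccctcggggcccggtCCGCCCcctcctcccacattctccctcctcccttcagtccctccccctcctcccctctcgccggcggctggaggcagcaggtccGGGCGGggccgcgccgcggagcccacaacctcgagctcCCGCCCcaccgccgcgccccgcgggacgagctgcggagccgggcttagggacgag

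Chrm4 and Chrna4 each hold 3 such boxes, a pair of which overlap in Chrm4, and Chrna7 and Chrnb2 hold 1 each. The box thus stood both in genes that rose and in one that fell. It was in 19 of 38 members (50%) and in 30.5% of all 33469 promoters, with a median GC content of 62% in the members and 51.2% in all. The half-site TGACG of the cyclic AMP response element was in 7 of 38 members (18.4%) and 18.2% of all. The full element TGACGTCA (1.59% of all promoters), the AP-1 site TGANTCA (6.34%) and the palindromic steroid response element (0.373%) were in no member's window. The core of the RE1 element, bound by the neuronal gene repressor REST, was in 0.0269% of all promoters and in 1 member, Hrh3. Both strands were searched. A member had passed the value minimum and counted once if any of its promoters matched. All promoters were counted singly and with no such minimum, so the shares are not compared like for like. These matches are letters in a window and say nothing of binding.

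Genes that make, release, bind or break down acetylcholine were taken as a list of 14, of which 11 could be tested. Of these 3 rose and 2 fell (45.5% called, beside 17.7% of all genes). This list, like the other handling lists, was chosen with earlier results of these data known. Ache, the acetylcholinesterase gene, was at 566, 659, 555 and 748 at 35 days and 1553, 1059, 1384 and 1349 at 125 days (means 632 ± 90.4 and 1336 ± 205, adjusted p = 0.000798 for a log2 change of 1.08, SE 0.14). Colq, the collagen tail that anchors the enzyme, was at 91.3, 80.6, 77.4 and 82.4 and 217, 233, 153 and 255 (means 82.9 ± 5.96 and 214 ± 44.1, adjusted p = 0.000796 for a log2 change of 1.34, SE 0.18). Tmem35a, whose product NACHO helps assemble Chrna7 channels, was at 263, 275, 301 and 216 and 863, 588, 667 and 811 (means 264 ± 35.4 and 733 ± 127, adjusted p = 0.000208 for a log2 change of 1.46, SE 0.15). None of these 3 had overlapping ages, and their calls held under all 21 alternatives. Lypd1, a relative of the toxin-like modulators of nicotinic receptors, fell by 1.61 on the log2 scale (SE 0.36, adjusted p = 0.0135), from 54.9 ± 31.1 to 15.7 ± 3.16, a call that the anterior lobe covariate ended (adjusted p = 0.122 for a log2 change of -1.10, SE 0.44). The choline transporter gene Slc44a1 fell too (means 3328 ± 534 and 2375 ± 206, adjusted p = 0.0305 for a log2 change of -0.47, SE 0.13), with overlapping ages. That call was lost without the intensity trend (0.0527) and without any 1 library except 35-day replicate 3 and 125-day replicate 2 (0.0641 to 0.0976). The modulator gene Lynx1 (means 337 ± 104 and 463 ± 57.5, adjusted p = 0.111 for a log2 change of 0.49, SE 0.19) and the chaperone gene Ric3 (means 2158 ± 389 and 2522 ± 128, adjusted p = 0.254 for a log2 change of 0.24, SE 0.14) did not pass. The genes that mark cholinergic neurons themselves were near the floor. Slc18a3, the vesicular transporter, was at 0 to 2.43, and Chat, the synthetic enzyme, was at 5.45 to 14.5 at 35 days and 0 to 2.93 at 125 days.

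In the same libraries the Pomc gene of melanotrophs took 5.65 to 10.2% of reads at 35 days and 10.1 to 14.3% at 125 days. Replicate 3, the lowest 35-day library for Chrm4, Chrna7 and Chrnb2, had the highest Pomc share of that age but the lowest values of the other 5 melanotroph markers, Pax7, Tbx19, Pcsk2, Oacyl and Drd2. The covariate used above follows the anterior lobe markers only, and their mean log2 level goes partly with age. For 35 days its values by replicate were 9.30, 12.49, 14.68 and 11.68. The older libraries had 9.64, 7.75, 9.94 and 9.88. A call lost under this covariate therefore cannot separate age from anterior lobe RNA. The part of melanotrophs and other cells in the cholinergic changes was not tested.

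Of the adrenergic receptors, Adra2a fell and Adrb1 rose. Adra2a encodes a Gi-coupled receptor for noradrenaline that acts on nerve terminals and on other cells. It was at 525, 772, 607 and 655 at 35 days and at 226, 459, 301 and 278 at 125 days. No library of 125 days reached the 35-day range, and replicate 2 was the highest of the older libraries. The mean was 0.494 times that at 35 days (means 639.7 ± 103 and 316 ± 101, adjusted p = 0.00741 for a log2 change of -1.05, SE 0.21), and the call held under all 21 alternatives. Replicate 2 also had the highest endothelial sum of the 125-day libraries, 29869, beside 15242 to 20616 in the other 3. It was likewise highest in the pituicyte (87222), pericyte and smooth muscle (15872), fibroblast (50097), and microglia and macrophage (14975) sums. Its melanotroph sum, 3635230, was the lowest of that age, and whether the tissue mix bears on Adra2a was not tested.

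Adra2b (46.5 ± 14.6 and 31.3 ± 14.1, log2 change -0.62, SE 0.35) and Adra2c (27.2 ± 15.5 and 20.9 ± 13.4, log2 change -0.40, SE 0.48), of the same subfamily, did not pass. Adrb1, a Gs-coupled receptor of low value here (18 to 51 reads), was at 21.9, 28.9, 19.6 and 28.8 and 42.7, 46.9, 53 and 31.3 (means 24.8 ± 4.77 and 43.5 ± 9.15, adjusted p = 0.0492 for a log2 change of 0.78, SE 0.24). Although the ages did not overlap, the call was lost under 16 of 20 alternatives (adjusted p from 0.0501 to 0.2), among them edgeR (0.0518) and each left-out library except 125-day replicate 4. Of the Gq-coupled receptors, Adra1d was lower in every 125-day library, at 25.3 ± 6.34 and 14 ± 2.08, without passing (adjusted p = 0.0758 for a log2 change of -0.79, SE 0.27), though it was called without 35-day replicate 1, with no intensity trend and with library weights. Adra1a (39.1 ± 15.1 and 49.1 ± 10.1) and Adra1b (33.2 ± 12.4 and 40.8 ± 26.6) overlapped between ages, and Adrb3, at 2.18 to 16.5, was not tested.

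Of 7 serotonin receptor genes only Htr6 was called (14.3%, beside 17.7% of all genes). It encodes a Gs-coupled receptor. Its values were 129, 159, 73 and 121 at 35 days and 49.8, 74.3, 73.1 and 52.8 at 125 days. The ages overlapped through 35-day replicate 3, and the other 3 libraries of 35 days were all higher than any of 125 days (means 121 ± 35.7 and 62.5 ± 13, adjusted p = 0.0343 for a log2 change of -0.91, SE 0.25). The call was lost with the replicate number as a block (0.0536) and without any 1 library except 35-day replicate 3 and 125-day replicate 2 (0.0568 to 0.101). Htr5a, Gi-coupled, was at 279, 211, 155 and 321 and 509.9, 292, 379.5 and 407, with 35-day replicate 4 above 125-day replicate 2 (means 241 ± 73.3 and 397 ± 89.7, adjusted p = 0.0593 for a log2 change of 0.74, SE 0.24). It just missed the threshold, and passed with DESeq2, with library weights, with the block and without 35-day replicate 4 or 125-day replicate 2.

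The Gq-coupled receptor genes Htr2a and Htr2c were lowest in 35-day replicate 3 among the younger libraries. Htr2a was at 2527, 2339.6, 1052 and 1845 and 1423, 1498, 1673 and 1128 (means 1941 ± 659 and 1431 ± 227, adjusted p = 0.34 for a log2 change of -0.38, SE 0.25), and Htr2c at 848, 938, 475 and 584 and 496, 632, 514 and 463 (means 711 ± 218 and 526 ± 73.7, adjusted p = 0.238 for a log2 change of -0.39, SE 0.21). Both ages overlapped for each, and both genes were called lower without replicate 3, with the covariate and with library weights. The channel subunit gene Htr3a was at 1197 ± 103 and 1052 ± 143 (adjusted p = 0.309 for a log2 change of -0.19, SE 0.12), while Htr3b, its partner in mixed channels, stayed at 0 to 6.30 and was not tested. Htr1b, an inhibitory receptor of axon terminals, was at 126 ± 45.6 and 116 ± 28.5 (adjusted p = 0.926 for a log2 change of -0.05, SE 0.30), and Htr5b at 17.6 ± 7.68 and 14.5 ± 8.35. Htr1a, Htr1d, Htr1f, Htr2b, Htr4 and Htr7 did not reach the minimum.

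Histamine and dopamine receptors gave no call. The Gq-coupled receptor gene Hrh1 was at 634, 749, 439 and 423 and 284, 449.6, 388 and 274 (means 561 ± 158 and 349 ± 84.7, adjusted p = 0.0655 for a log2 change of -0.67, SE 0.22). The ranges overlapped, since 125-day replicate 2 exceeded 35-day replicates 3 and 4. It was called lower under 7 of 21 alternatives, without 35-day replicate 3 among them (0.0251). Hrh2, Gs-coupled, was at 42.3 ± 16.1 and 23.8 ± 6.73 (adjusted p = 0.129 for a log2 change of -0.77, SE 0.32), and was called lower without 35-day replicate 3, with the covariate and with library weights. Hrh3, an inhibitory receptor of nerve terminals, spread widely at both ages, from 113 to 248 and from 80.1 to 263 (means 199 ± 59.2 and 167 ± 92.9, adjusted p = 0.567 for a log2 change of -0.38, SE 0.40). Hrh4 was at 0 to 2.18. Of the dopamine receptors Drd1, Drd3, Drd4 and Drd5 all lay under the minimum, with Drd4 at 20.7 in 35-day replicate 3 and at 4.06 or less in the others. Drd2, the melanotroph dopamine receptor left out by name, was at 17767 ± 2661 and 17389.5 ± 2874 (adjusted p = 0.914 for a log2 change of -0.03, SE 0.15).

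Genes for amine synthesis, storage and breakdown formed a list of 20, of which 18 were tested. Of the 18 tested, 4 rose and 2 fell (33.3% called, beside 17.7% of all genes). The genes for the tryptophan hydroxylases, which start serotonin synthesis, went opposite ways. Tph2, the neuronal form, was at 4194, 3730.5, 3036 and 3201 and 2183, 1522, 1705 and 1808 (means 3540.3 ± 527 and 1804 ± 279, adjusted p = 0.00116 for a log2 change of -0.97, SE 0.14), and Tph1 at 166, 139.5, 86.1 and 110.1 and 221, 242, 279.9 and 327 (means 125 ± 34.6 and 268 ± 46.6, adjusted p = 0.00625 for a log2 change of 1.12, SE 0.21). The ages did not overlap for either gene. The Tph2 call held under all 21 alternatives, and the anterior lobe covariate ended that of Tph1 (adjusted p = 0.0583 for a log2 change of 0.81, SE 0.25). Slc18a1, a vesicular amine transporter of endocrine cells, rose from 50.7 ± 14.7 to 110.4 ± 10.9 (adjusted p = 0.00636 for a log2 change of 1.15, SE 0.22), while Slc18a2, the neuronal form, was at 327 ± 41.1 and 270.1 ± 19.9 (adjusted p = 0.17 for a log2 change of -0.27, SE 0.12).

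Th, which makes the catecholamine precursor, was low, at 15.8, 14.5, 13.1 and 19.2 and 30.5, 31.3, 34 and 21.5 (means 15.6 ± 2.62 and 29.3 ± 5.43, adjusted p = 0.0358 for a log2 change of 0.86, SE 0.24), a call lost under 9 of 20 alternatives: with no filter, total read scaling, the replicate block, the covariate, and the omission of 35-day replicate 1 or 2 or of 125-day replicate 1, 2 or 3 (adjusted p from 0.0557 to 0.199). Of the breakdown enzymes Maoa rose slightly (means 2067 ± 171 and 2546 ± 157, adjusted p = 0.0464 for a log2 change of 0.30, SE 0.09), while Maob was at 6415 ± 981 and 4797 ± 1025 (adjusted p = 0.0996 for a log2 change of -0.43, SE 0.16). The Maoa call was lost under 12 of 21 alternatives, among them the covariate (adjusted p = 0.238 for a log2 change of 0.22, SE 0.12) and the omission of 35-day replicate 2 or 4 or of any single 125-day library (0.051 to 0.148). Dbh, of noradrenaline synthesis, was at 13.6 ± 4.17 and 6.96 ± 2.93, and the reuptake genes Slc6a2 and Slc6a4 were at 26.2 ± 9.87 and 24.3 ± 7.12 and at 14.1 ± 4.19 and 10.1 ± 3.03.

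Purine receptors come as P2X channels for ATP, P2Y receptors for nucleotides and adenosine receptors. Of 6 P2X genes only P2rx3 was called, and it rose (16.7% called, beside 17.7% of all genes). P2rx3 encodes a rapidly closing channel best known from sensory neurons. Its values were 103, 109, 126 and 174 at 35 days and 277, 264, 257 and 267 at 125 days. Older libraries were all higher and lay close together (means 128 ± 32.3 and 266 ± 8.37, adjusted p = 0.00227 for a log2 change of 1.08, SE 0.17), and the call held under all 21 alternatives. In the GRCr8 annotation P2rx3 overlaps Ssrp1, a histone chaperone gene, which was at 4503 ± 274 and 4167 ± 189 (adjusted p = 0.398 for a log2 change of -0.11, SE 0.08).

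P2rx2, whose product forms mixed channels with that of P2rx3, was at 169, 212, 277 and 122 and 125, 118, 108 and 114 (means 195 ± 65.8 and 117 ± 6.93, adjusted p = 0.0671 for a log2 change of -0.68, SE 0.23), with only 35-day replicate 4 in the range of the older libraries. It did not pass, but was called lower by DESeq2, with library weights, under total read scaling and without 35-day replicate 4. The P2rx3 to P2rx2 ratio lay between 0.457 and 1.43 in the 35-day libraries and between 2.22 and 2.37 in those of 125 days. P2rx3 took 6.87 to 11.4% of the summed P2X value at 35 days and 16 to 20.7% at 125 days. P2rx4 (464 ± 40.4 and 429 ± 63.2) and P2rx7 (359 ± 113 and 369 ± 90.3), channels of microglia and other cells, showed no call (log2 changes -0.12, SE 0.13, and 0.08, SE 0.26). P2rx7 was highest in 125-day replicate 2, at 504, the library with the highest microglia and macrophage sum of that age (14975 of 9488 to 14975). The pituicyte, endothelial, pericyte and smooth muscle, and fibroblast sums of that library were the highest of that age too, and the cause was not tested. P2rx6 was at 257 ± 63.3 and 246 ± 10.7 and P2rx1, of smooth muscle and platelets, at 35.9 ± 9.5 and 26 ± 5.34. P2rx5 was at 0 to 5.86 and was not tested.

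None of 6 P2Y genes was called, against 17.7% of all genes. P2ry1, the ADP receptor gene, came closest, at 495, 539, 391 and 457 and 265, 385, 389.6 and 269.8 (means 471 ± 62.8 and 327 ± 69.3, adjusted p = 0.0523 for a log2 change of -0.54, SE 0.17). Its highest 125-day value lay just under its lowest 35-day value, which was replicate 3. It was called lower by DESeq2, with library weights, upper quartile scaling and the covariate, and without 35-day replicate 3 or 125-day replicate 2. P2ry4, a receptor for UTP and ATP, was at 427, 470.2, 287 and 556 and 518, 582, 653 and 479 (means 435 ± 112 and 558 ± 76.2, adjusted p = 0.204 for a log2 change of 0.39, SE 0.19), with overlapping ages. The log2 change was 0.20 (SE 0.13) without 35-day replicate 3, the lowest library, and 0.13 (SE 0.23) with the anterior lobe covariate. P2ry2 (252 ± 47.4 and 224 ± 26.8), P2ry6 (229 ± 17 and 235 ± 30.3), the UDP receptor gene, and P2ry14 (277 ± 25.4 and 254 ± 11.1), the UDP-glucose receptor gene, had log2 changes between -0.15 and 0.03. P2ry10, a lysophosphatidylserine receptor gene despite its name, was at 18.6 ± 7.18 and 15.4 ± 9.48. The microglial receptor gene P2ry12, left out by name, fell (means 1078 ± 155 and 539 ± 101, adjusted p = 0.00158 for a log2 change of -1.01, SE 0.15), and P2ry13 was at 302 ± 72.2 and 215 ± 36.7 (adjusted p = 0.131 for a log2 change of -0.47, SE 0.20). Of 10 microglia and macrophage markers, which include both, 3 were lower, and their sums were 13013 to 15321 and 9488 to 14975.

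The adenosine receptor genes did not pass. Adora1, Gi-coupled and known to restrain hormone release, was at 1957, 2495, 1560.4 and 2180.4 and 1554, 2269, 2107 and 1674, fully overlapping (means 2048 ± 393 and 1901 ± 341, adjusted p = 0.713 for a log2 change of -0.10, SE 0.17). Adora2a, Gs-coupled, was at 1163, 900.1, 1139 and 974 and 1231, 1431, 1369 and 1179.9. Each older library was higher, by a small margin (means 1044 ± 127 and 1303 ± 117, adjusted p = 0.0783 for a log2 change of 0.32, SE 0.11). It was called higher without 35-day replicate 3 and with library weights. Adora2b was at 49.7 ± 9.64 and 40.5 ± 8.4 (adjusted p = 0.432 for a log2 change of -0.29, SE 0.23).

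Of 17 tested genes for purine release, breakdown and uptake (19 listed), 1 rose and 4 fell (29.4% called, beside 17.7% of all genes). Among the ectonucleotidases, surface enzymes that degrade ATP and ADP, Entpd3 and Entpd2 moved apart. Entpd3 was at 502, 467, 589.5 and 465 and 1143, 665, 914 and 893 (means 506 ± 58.3 and 904 ± 195, adjusted p = 0.00707 for a log2 change of 0.82, SE 0.16). Entpd2 was at 1647, 1887, 1615 and 1576 and 878, 1449, 957 and 1053 (means 1681 ± 140.1 and 1084 ± 254, adjusted p = 0.0144 for a log2 change of -0.66, SE 0.15). Both had separate ages, and the Entpd2 call was lost without 125-day replicate 3 (adjusted p = 0.0511). Entpd1, of microglia and vessels, was at 1969 ± 508 and 1355 ± 244 (adjusted p = 0.118 for a log2 change of -0.51, SE 0.21). The pyrophosphatase genes Enpp1 (510.2 ± 108 and 258 ± 48.2, adjusted p = 0.00777 for a log2 change of -0.97, SE 0.19) and Enpp3 (465 ± 76.2 and 314 ± 43.7, adjusted p = 0.0298 for a log2 change of -0.56, SE 0.15) fell. So did Pnp, of purine salvage (14309.5 ± 577 and 9856 ± 1920.1, adjusted p = 0.019 for a log2 change of -0.56, SE 0.14). Omitting 35-day replicate 2, or 125-day replicate 1, 3 or 4, ended the Pnp call (0.0511 to 0.0661), and that of Enpp3 without any 1 library except 35-day replicate 3 and 125-day replicate 2 (0.0516 to 0.0949). Nt5e, which turns AMP into adenosine (means 255 ± 75.8 and 191 ± 34.5, adjusted p = 0.232 for a log2 change of -0.39, SE 0.21), and Slc17a9, the vesicular ATP transporter gene (means 307 ± 37.9 and 377 ± 25.5, adjusted p = 0.123 for a log2 change of 0.30, SE 0.12), did not pass.

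Among 10 genes that switch G protein-coupled receptors off, 1 rose and none fell (10% called, beside 17.7% of all genes). Grk3, a receptor kinase, was at 1116, 965, 722 and 1126 at 35 days and 1665, 1529.6, 1615 and 1853 at 125 days, without overlap (means 982 ± 188 and 1666 ± 137, adjusted p = 0.00527 for a log2 change of 0.78, SE 0.14), and the call held under all 21 alternatives. The close relative Grk2 was at 2849 ± 165 and 3244 ± 86.6 (adjusted p = 0.134 for a log2 change of 0.19, SE 0.08), and the arrestin genes Arrb1 and Arrb2 were at 3072 ± 832 and 3648 ± 507 and at 719 ± 102 and 679 ± 17.9. Over the 4 lists together 9 of 56 tested genes rose and 8 fell, 30.4% of them beside 17.7% of all genes. As the lists were chosen with earlier results of these data known, this difference does not show that such genes change more often. Without 35-day replicate 3, where 30.7% of all genes were called (15.9% higher, 14.8% lower), 13 rose and 12 fell. In the same libraries 7 of 8 fibroblast markers fell (sums 83042 to 111540.0 at 35 days and 32355 to 50097 at 125 days), beside the vessel, pituicyte and microglia markers above, and their part in these counts was not tested.

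**Figure D3:**
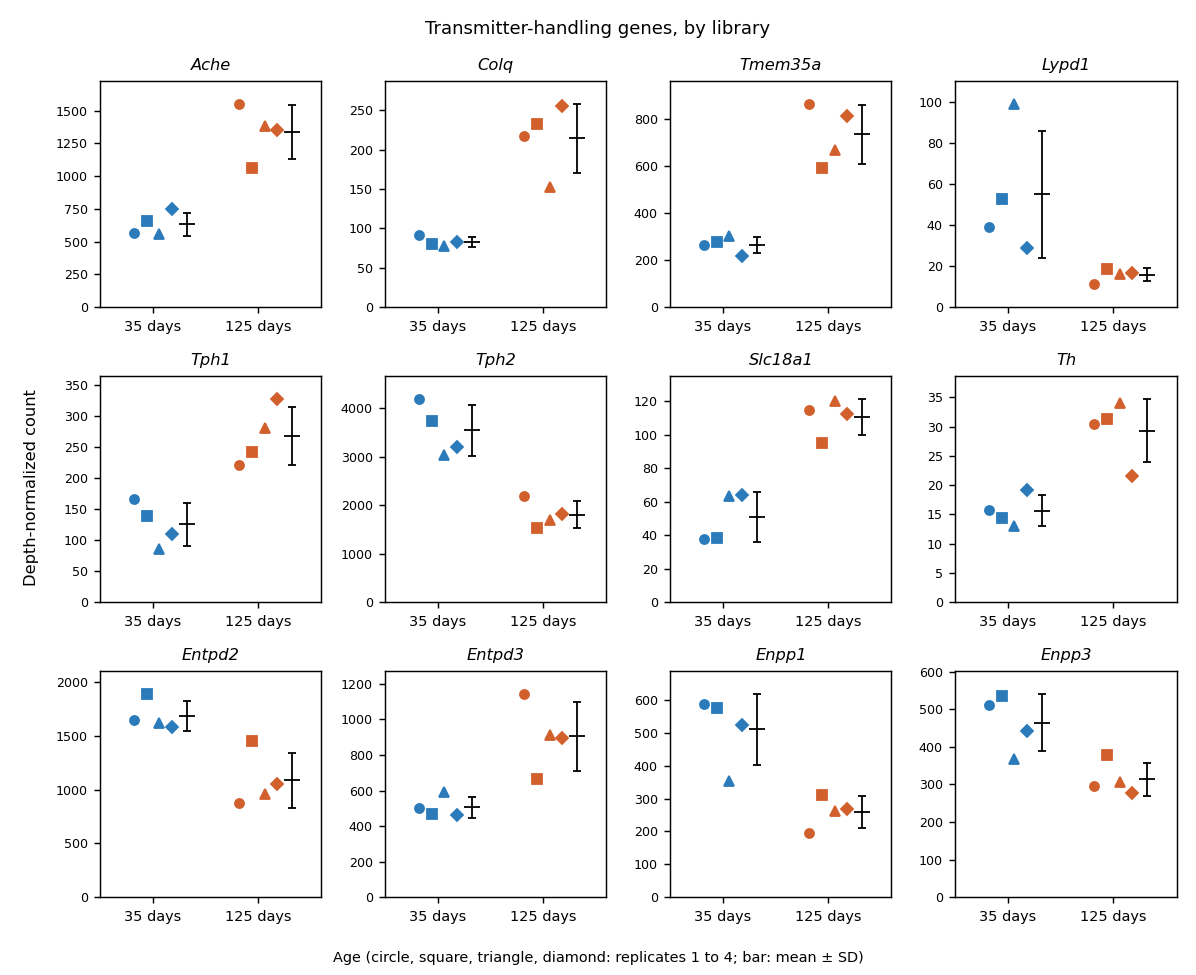
Depth-normalized counts (y axes, from 0) of 12 genes that handle acetylcholine, amines or nucleotides at 35 and 125 days (x axes), with 1 symbol per replicate and bars for mean ± SD. Of these genes Ache, Colq, Tmem35a, Tph1, Slc18a1, Th and Entpd3 are higher at 125 days and Lypd1, Tph2, Entpd2, Enpp1 and Enpp3 lower, and the ages overlap for Enpp3 alone.

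**Figure D4:**
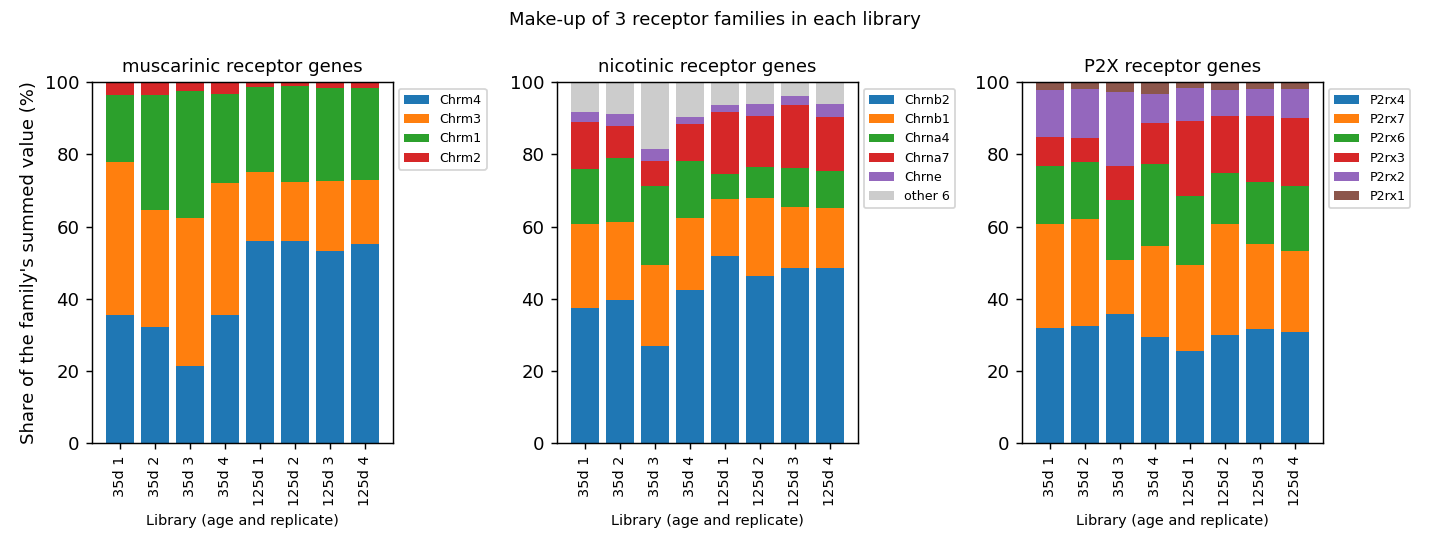
Share (y axes, %) that each gene takes of the summed depth-normalized counts of the muscarinic, nicotinic and P2X receptor genes in each library (x axes), not corrected for transcript length. Chrm4 covers 53.2 to 56% of the muscarinic sum in the 125-day libraries and at most 35.5% in those of 35 days, and P2rx3 at least 16.0% of the P2X sum at 125 days and at most 11.4% at 35 days.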

How the data were processed

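Poly(A) RNA of the neural lobe of male rats was sequenced in 4 libraries per age. The authors deposited depth-normalized counts, a signal of gene reads divided by 1 size factor per library. Build rn7, HISAT2 2.2.1, Trimmomatic 0.39, featureCounts (Subread 2.0.1), SAMtools 1.13 and DESeq2 1.34.0 are named, per the submitters' processing notes, without their roles. The annotation and the strandedness of the counting were not given in the sources used here. Dividing by the value of 1 read returned whole reads for 100% of the deposited values (tolerance 0.001 reads). Libraries held 28429133 to 58696254 reads, so a gene with few reads is measured less precisely.

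The receptor genes and all gene lists were chosen with earlier results of these data known. The 17919 genes that reached a value of 10 in 4 or more libraries were tested with limma 3.58.1 in R 4.3.3 on log2(value + 1), age being the only term and the variance following an intensity trend. The test is two-sided with Benjamini-Hochberg adjustment over all genes and a threshold of 0.05. This scale understates changes of low genes. Alternatives used edgeR 4.0.16 (quasi-likelihood) and DESeq2 1.42.0 on the recovered reads, pseudocounts of 0.5 and 5, no filter, a mean of at least 50, TMM, upper quartile and total read scaling, no trend, library weights, a replicate block, a covariate for anterior lobe markers, and each library left out.

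Results of some genes that enter the counts are not reported here. Each other receptor gene was named with its means. Values in every library were given for those called, those with a log2 change of at least 1 in size and, in families with neither, the one with the highest mean. The other called genes of the handling lists were named. Other genes given in every library were chosen after their values were seen. Scripts were tested on simulated data.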

Additional observations from a re-analysis of the deposited data

Results flagged for a closer look

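In 6 of the 130 age groups examined (65 genes, 4 libraries each), 1 library stood far from the other 3 of its age, where chance flags about 1 in 20 groups. Chrm4 was at 95.9 in 35-day replicate 3, beside 199.6 to 217 in the other 35-day libraries. Chrna1 was high in the same library, at 101 against 13.4 to 18.1. Chrnb3 was at 28.8 in 35-day replicate 4 and at 3.65 to 6.54 in the others of that age. Adora2b was low in 35-day replicate 1, at 35.3 against 53.1 to 55.8, and so was Adra1d, at 15.8 against 28.2 to 28.9. P2rx7 was at 504 in 125-day replicate 2, beside 318 to 335 in the other 125-day libraries. The causes were not tested.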

How the results depend on the processing

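Of the genes refitted under each alternative (the called ones, those with a log2 change of at least 1 in size, P2ry4, Adora1 and Hrh1), none changed direction, and the calls of Chrm4, P2rx3 and Adra2a held under all 21. With anterior lobe markers as a covariate 3 receptor genes were higher and 7 lower, against 6 and 3, where 7.78% of all genes were higher and 7.78% lower (15.6% called). Library weights gave 13 lower receptor genes, Adora1 and Htr1b among them, with 7892 genes called in all (44%) against 3174 and 14 higher and 18 lower handling genes against 9 and 8. DESeq2 gave 7 lower receptor genes and 14 called in all, with 4196 calls over all genes (23.4%). With edgeR 8 receptor genes were called, beside 17.7% of all genes. The cause of these differences was not tested. Leaving out 1 library at a time gave 2 to 7 higher and 1 to 8 lower receptor genes, 1894 to 5495 calls over all genes, and 7 to 13 higher and 3 to 12 lower handling genes. The fewest receptor genes were called without 125-day replicate 1 (2 higher, 1 lower), where 11% of all genes were called. The most were called without 35-day replicate 3 (7 higher, 8 lower), where 30.7% of all genes were called.

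The main fit did not treat the replicate numbers as pairs. Deviations of same-numbered libraries correlated at 0.04, 0.17, -0.00 and -0.12, and 1 of 4 numbers correlated best with itself. Such weak correlations cannot exclude that same-numbered libraries were handled together. With the replicate number as a block 6 receptor genes were higher and 3 lower, Hrh1 and Htr5a entering and Adrb1 and Htr6 leaving. That fit gave 2718 calls over all genes (15.2%) and 7 higher and 8 lower handling genes. Low counts limit Adrb1, Chrna2, Chrna10 and Th, among others, with at most 51 reads in any library.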
